A study of Saccharomyces cerevisiae with 27 samples.

Results

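The comparison described here sets LCY002 against LCY001, 2 strains of the budding yeast Saccharomyces cerevisiae grown in glucose, by messenger RNA sequencing. It takes the 6 of 27 libraries that the labels give as LCY002 or LCY001 in glucose, 3 for each strain, and the other libraries entered the fit so that all 9 groups of strain and carbon source shared an estimate of the spread. LCY002 derives from BY4741 and carries the marker HIS3 on a centromeric plasmid together with an array of 40 added genes, which serve galactose use, the glycolytic pathway and synthesis of ergosterol. LCY001, the control, received HIS3 on such a plasmid without the array. BY4741, a laboratory haploid with the alleles his3Δ1, leu2Δ0, met15Δ0 and ura3Δ0, is the parent of both and was sequenced in glucose in 3 libraries as well. All 3 strains therefore share these deletions, and each plasmid strain stands for 1 construct. Replicates were individual colonies, diluted from overnight cultures to an OD600 of 0.1 and harvested near 1.0, per the labels. The labels give medium without histidine for the overnight cultures of all 3 strains, although BY4741 needs histidine by its genotype, so that the medium of BY4741 is uncertain and may have differed from that of the plasmid strains. They do not say whether the diluted cultures held histidine, and strand marking of the libraries is not stated in them.

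Total expected counts were 15059954 to 16145661 per library, so that 3 counts equal 0.199 CPM in the smallest of the 6. CPM are counts per 1e6 library counts, with library sizes scaled by TMM factors, and such limits cover counting error only. Among the 9 glucose libraries the first principal component (44.4% of the variance) set LCY002 apart from LCY001 and BY4741, and the second (37.2%) set LCY001 apart from LCY002 and BY4741. No library lay away from its group. LEU2, URA3 and MET17 had 0 counts in every library of the 3 strains in glucose. HIS3, the plasmid marker, was at 495, 496 and 529 CPM in LCY002, at 1495, 1522 and 1470 CPM in LCY001 and at 39.2, 35.1 and 38.4 CPM in BY4741. HIS3 was thus lower in LCY002 than in LCY001 (log2 fold change -1.56 ± 0.05 SE, adjusted p = 1.9e-18). The his3Δ1 allele removes only part of the gene, so that counts in BY4741 do not go against its label. The a-cell genes STE2 and BAR1 were at 836 to 1406 and 212 to 404 CPM by unscaled totals, against 0.989 to 3.55 CPM for the alpha-factor gene MF(ALPHA)1, as in a MATa haploid. MFA1 and MFA2, the a-factor genes, are listed at 0 in every library.

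Budding yeast in ample glucose ferments and divides, while genes for reserve carbohydrates, heat and oxidative stress and respiration are held low by glucose repression and by protein kinase A. Glycogen and trehalose are the reserve carbohydrates, laid down as growth slows, and many of their genes are activated with other stress genes through the transcription factors Msn2 and Msn4. Amino acid synthesis genes answer to a separate regulator, Gcn4, whose protein rises when amino acids are short. A gene was called where the Benjamini-Hochberg adjusted p of edgeR's quasi-likelihood test was below 0.05 over all 5692 genes tested, and fold changes are LCY002 over LCY001 unless another pair is named.

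Among genes that the array does not carry, transcripts of glycogen, trehalose and general stress genes were lower in LCY002 than in LCY001, and those of amino acid synthesis genes were higher. Differences were many and mostly small. Of 5652 genes tested outside the array 1584 rose and 1435 fell, and 84.0% of these differed by less than 1.5 fold, with a median size of 0.28 on the log2 scale. At least 2 fold separated 59 genes that rose and 108 that fell. Over all genes tested, array included, 53.7% were called, 28.5% higher and 25.3% lower, and the 3 libraries of LCY002 did not overlap those of LCY001 for 60.7%. Counts for a gene list are read against these shares. The split depends on the scale: with total counts in place of TMM factors 866 genes rose and 2292 fell, and the median of all genes shifted by -0.11.

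**Figure D1:**
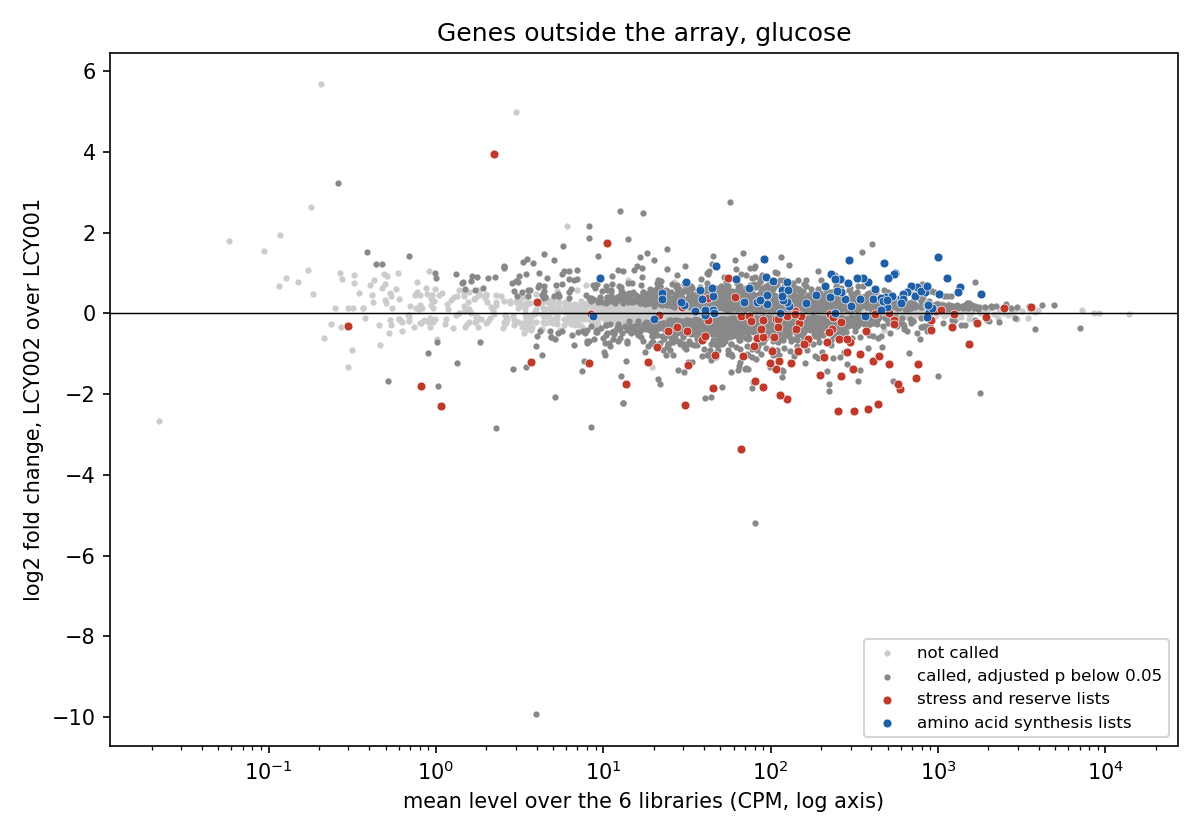
Log2 fold change of LCY002 over LCY001 in glucose (y axis) against the mean level over the 6 libraries in CPM (x axis, log scale), 1 point per gene tested outside the array. Grey points are other genes, dark where called; red points are the 102 genes of 5 stress and reserve lists, most of them below 0, and blue points are the 90 genes of 7 amino acid lists, most of them above 0.

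Glycogen genes fell in large part. Of 15 tested genes of glycogen synthesis and breakdown 12 fell and 3 were not called, with a median log2 fold change of -1.24, against 0.01 over all genes tested. Their summed level was 1248, 1330 and 1396 CPM in the LCY002 libraries, against 4765, 3999 and 4305 CPM in the LCY001 libraries. In BY4741 the sum was 1832, 1786 and 1994 CPM, between the other strains. In a bulk sample, fewer cells with a transcript and fewer transcripts per cell cannot be told apart.

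GLC3, which encodes the glycogen branching enzyme (gene ID 856705, build R64, chromosome V, 133120 to 135234), stood at 91.2, 101 and 105 CPM in LCY002, against 594, 496 and 509 CPM in LCY001. This is a log2 fold change of -2.42 ± 0.17 (adjusted p = 5.29e-10), and the highest LCY002 library lay far under the lowest LCY001 library. GSY1, a glycogen synthase gene (gene ID 850569, chromosome VI, 174265 to 176391), was at 108, 123 and 137 CPM in LCY002 and at 717, 569 and 628 CPM in LCY001 (-2.38 ± 0.15, adjusted p = 9.51e-11). GSY2, the other synthase gene, averaged 252 ± 20.6 CPM in LCY002 and 929 ± 80.5 CPM in LCY001 (SD, n = 3 libraries each, as for all means given here). The breakdown enzyme moved with the synthases. GPH1, glycogen phosphorylase (gene ID 856289, chromosome XVI, 861306 to 864014), was at 139, 147 and 175 CPM in LCY002 and at 826, 652 and 694 CPM in LCY001 (-2.24 ± 0.13, adjusted p = 8.62e-12).

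All 7 trehalose genes fell, with a median of -0.75. TPS2, trehalose-6-phosphate phosphatase, had 338, 376 and 384 CPM in LCY002 and 1182, 1027 and 1107 CPM in LCY001 (-1.59 ± 0.09, adjusted p = 2.06e-13). TSL1 and TPS3, subunits of the synthase complex, changed by -1.75 ± 0.11 and -0.75 ± 0.05. TPS1, the trehalose-6-phosphate synthase gene, is among the genes treated as uncertain, which share reads with a near-identical copy, overlap or adjoin another transcript, or differ more than 3 fold between replicates. It had 12.4, 17.6 and 5.22 CPM in LCY002 and 123, 22.4 and 216 CPM in LCY001, so that 1 LCY001 library lay close to LCY002. Its log2 fold change of -3.35 ± 1.06 (adjusted p = 0.0127) lost its call in the fits without LCY001 replicate 3 (-2.62) or LCY002 replicate 3 (-3.00), with the replicate block (-3.00) and with only the 6 libraries (-3.36).

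The general stress list held 34 genes, of which 28 fell, 2 rose and 4 were not called, with a median of -0.99. RGI1, a gene needed for energy metabolism in respiratory growth (gene ID 856797, chromosome V, 292066 to 292551), was at 62.1, 75.0 and 101 CPM in LCY002 and at 476, 405 and 391.6 CPM in LCY001 (-2.42 ± 0.35, adjusted p = 1.08e-05). RTN2, a reticulon protein of the endoplasmic reticulum, was at 43.8, 43.3 and 47.8 CPM in LCY002 and 192, 167 and 188 CPM in LCY001 (-2.02 ± 0.13, adjusted p = 4.37e-11). TMA10, which encodes a ribosome-associated protein, averaged 10.6 ± 2.32 CPM in LCY002 and 50.6 ± 5.18 CPM in LCY001, and ALD3, an aldehyde dehydrogenase gene, averaged 39.7 ± 3.52 CPM in LCY002 and 140 ± 12.3 CPM in LCY001. The pair that rose was GRE1 and HUG1. GRE1, a hydrophilin gene, had 16.1, 13.0 and 19.4 CPM in LCY002 and 5.05, 5.32 and 4.01 CPM in LCY001 (1.75 ± 0.54, adjusted p = 0.0107). HUG1, known as a gene of the DNA damage response and named after its values were seen, had 5.15, 3.19 and 4.20 CPM in LCY002 and 0.0648, 0.444 and 0.272 CPM in LCY001.

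Heat shock genes did not all move one way. Of 26 tested, 17 fell, 4 rose and 5 were not called, with a median of -0.25. HSP104, the protein disaggregase, had 406, 472 and 464 CPM in LCY002 and 1148, 1011 and 1058 CPM in LCY001 (-1.26 ± 0.09, adjusted p = 3.35e-11). HSP42, a small heat shock protein, changed by -1.39 ± 0.09, HSP82, an Hsp90, by -0.96 ± 0.08 and HSP30, a plasma membrane protein, by -0.999 ± 0.21. HSP26, the other small heat shock protein, went the opposite way, with 76.3, 69.8 and 71.2 CPM in LCY002 and 41.1, 45.5 and 31.6 CPM in LCY001 (0.88 ± 0.19, adjusted p = 0.000642). Of 20 oxidative stress genes 10 fell, 1 rose and 9 were not called. CTT1, the cytosolic catalase (gene ID 852979, chromosome VII, 654634 to 656322), had 49.1, 41.7 and 48.8 CPM in LCY002 and 221, 193 and 196 CPM in LCY001 (-2.13 ± 0.18, adjusted p = 6.7e-09). Among the glutathione peroxidase genes GPX1 changed by -1.21 ± 0.12 and GPX2 by 0.40 ± 0.07.

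**Figure D2:**
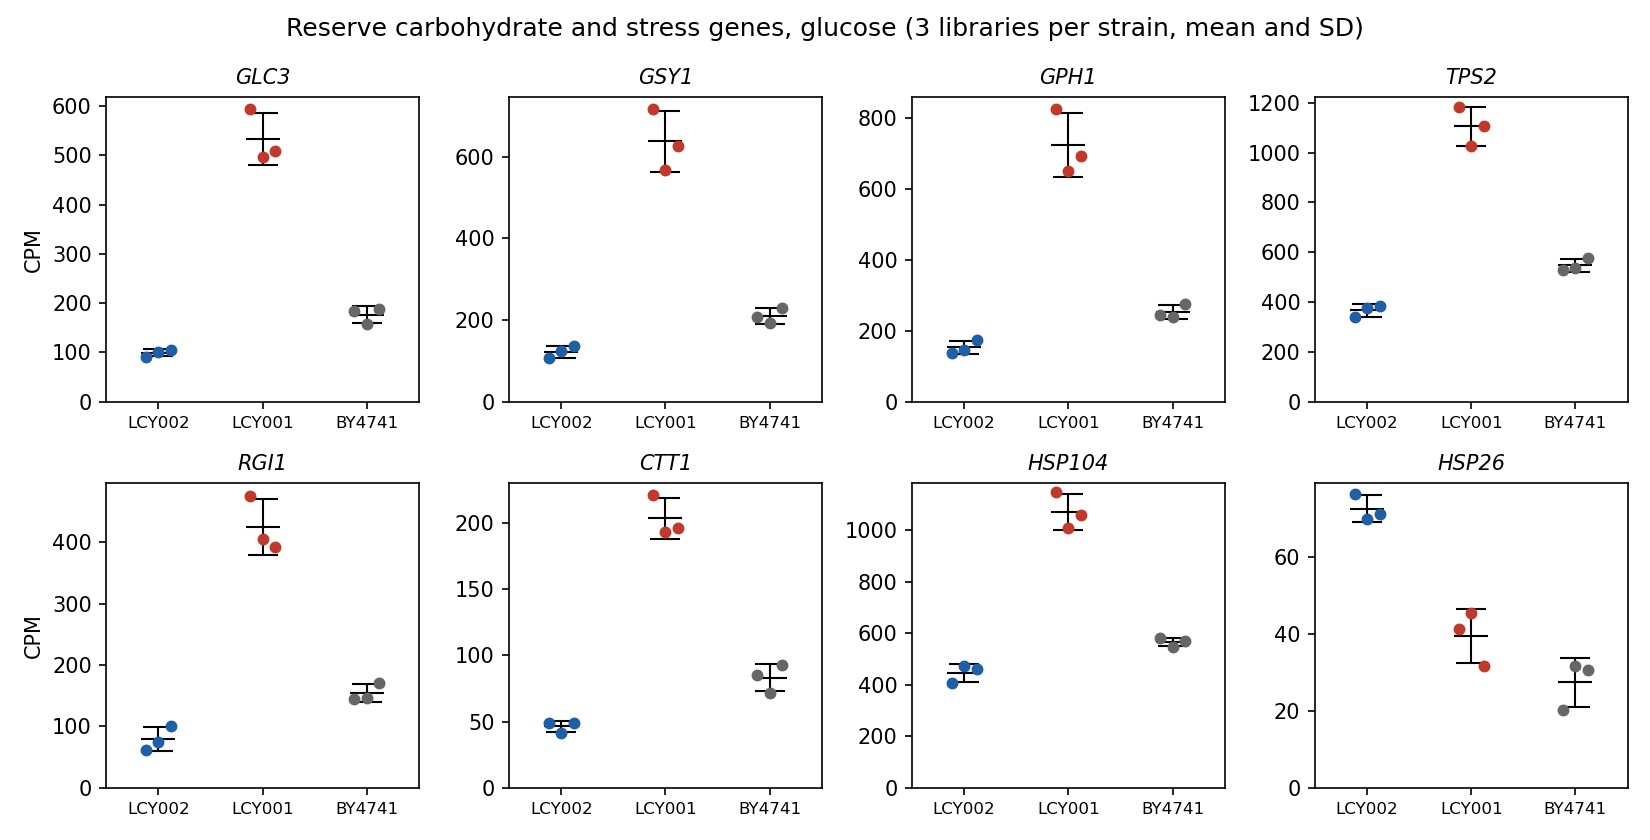
Levels in CPM (y axes, from 0) of 8 reserve carbohydrate and stress genes in each glucose library of LCY002, LCY001 and BY4741; points are libraries and bars are the mean with SD. In 7 panels LCY001 is highest and LCY002 lowest, and in the HSP26 panel LCY002 is highest.

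The uncertain medium of BY4741 touches every comparison with it. Against BY4741, the 102 genes of the 5 lists were higher in LCY001 for 79 and lower for 3, where 27.6% of all genes tested were called higher and 27.8% lower. LCY002 against BY4741 gave 23 genes higher and 32 lower, where 17.7% of all genes were called higher and 20.7% lower. Medians of the 5 lists together were -0.60 for LCY002 over LCY001, 0.55 for LCY001 over BY4741 and 0.00 for LCY002 over BY4741, and these comparisons share libraries. By list, the medians for LCY002 over BY4741 were -0.28 for glycogen, -0.24 for trehalose, -0.03 for heat shock, 0.00 for general stress and 0.08 for oxidative stress genes. GLC3 had 184, 158 and 189 CPM in BY4741 and was lower in LCY002 (-0.83 ± 0.17, adjusted p = 0.000625), as was GSY1 (-0.78 ± 0.15, adjusted p = 0.000339). HSP82 averaged 201 ± 3.42 CPM in BY4741, and LCY002 was not called different from it (-0.05 ± 0.08, adjusted p = 0.663).

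Promoters of the 3 largest falls among these lists, leaving out uncertain genes, are printed to show what lies upstream of them. Each line is 150 bases from the RefSeq genome (build R64), 5′ to 3′ on the strand of the gene, from 250 to 101 bases before the start codon. GLC3 is chrV:132870-133019, plus strand, RGI1 is chrV:291816-291965, plus strand and GSY1 is chrVI:176492-176641, minus strand. Capitals mark AGGGG or its complement CCCCT, the core of the stress response element that Msn2 and Msn4 bind.
GLC3: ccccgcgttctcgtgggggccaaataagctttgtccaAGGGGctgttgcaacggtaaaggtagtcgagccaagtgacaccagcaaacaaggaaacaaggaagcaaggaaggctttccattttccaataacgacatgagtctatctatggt
RGI1: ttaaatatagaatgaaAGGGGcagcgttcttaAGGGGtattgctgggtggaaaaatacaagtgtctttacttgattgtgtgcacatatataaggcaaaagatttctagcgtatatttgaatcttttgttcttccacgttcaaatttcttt
GSY1: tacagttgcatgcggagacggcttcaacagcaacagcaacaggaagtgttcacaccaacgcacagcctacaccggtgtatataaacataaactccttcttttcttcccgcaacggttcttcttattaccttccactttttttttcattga
GLC3 holds 1 match in the stretch shown, 213 bases before the start codon, and RGI1 holds 2, at 234 and 218 bases. GSY1 holds 0 here. In windows of 250 bases before to 50 after the start codon, AGGGG on either strand occurred in 21.7% of 5681 promoters and in 47 of the 102 promoters of the 5 lists (46.1%). By list it occurred in 6 of 15 glycogen, 4 of 7 trehalose, 16 of 34 general stress, 9 of 26 heat shock and 12 of 20 oxidative stress promoters. The general stress list was drawn up as genes of Msn2 and Msn4 type, so its share is not independent of that choice. Other lists reached such shares, with 17 of 37 respiratory chain, 6 of 11 glycerol and 9 of 16 pentose phosphate promoters. Ribosome biogenesis had 8 of 54 and cytosolic ribosomal proteins had 22 of 133. A match is a description of the letters and not a binding site.

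Amino acid synthesis genes rose as a broad group. Of 90 tested genes in 7 lists 76 rose, 0 fell and 14 were not called, with a median log2 fold change of 0.44. For falls, 1 gene had an unadjusted p below 0.05 in edgeR's test, and DESeq2, the other tool run, called 1. All 10 arginine, all 10 lysine and all 11 branched-chain genes rose, as did 5 of 6 histidine, 11 of 13 aromatic, 17 of 23 sulfate and methionine and 12 of 17 serine, glycine, threonine and proline genes. Medians went from 0.89 for arginine and 0.74 for lysine to 0.35 for sulfate and methionine and 0.30 for the serine group.

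**Figure D3:**
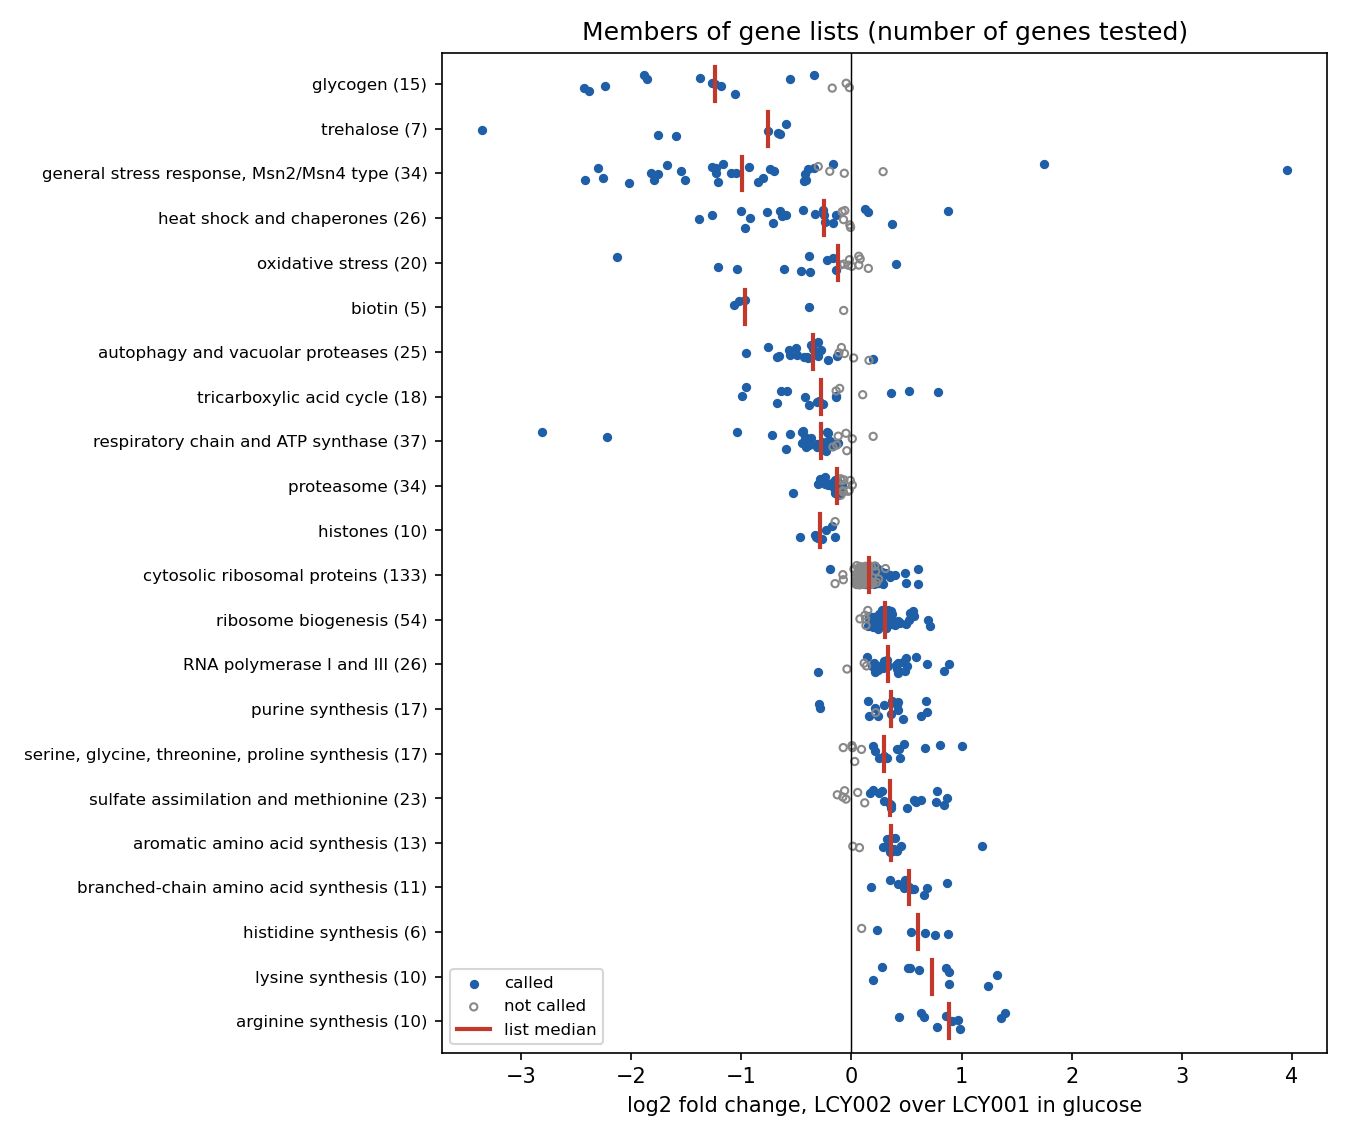
Log2 fold change of LCY002 over LCY001 in glucose (x axis) for each tested member of 22 gene lists (rows, with the number of genes tested); filled points are called, open points are not, and red bars are list medians. Glycogen, at -1.24, has the lowest median and arginine synthesis, at 0.89, the highest.

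ARG1, argininosuccinate synthetase (gene ID 854096, chromosome XV, 219211 to 220473), was at 1439, 1428 and 1468 CPM in LCY002 and at 557, 551 and 544 CPM in LCY001 (1.39 ± 0.04, adjusted p = 2.5e-19). ARG3, ornithine carbamoyltransferase (gene ID 853357, chromosome X, 268799 to 269815), was at 134, 127 and 132 CPM in LCY002 and at 55.2, 53.0 and 45.3 CPM in LCY001 (1.36 ± 0.10, adjusted p = 1.38e-10). ARG56, whose product catalyses early steps from glutamate, changed by 0.97 ± 0.05. Libraries of a strain lay within a few percent of each other for ARG1, and the groups were well apart. In lysine synthesis LYS1, saccharopine dehydrogenase (gene ID 854852, chromosome IX, 419615 to 420736), had 424, 401 and 427 CPM in LCY002 and 162, 164 and 176 CPM in LCY001 (1.32 ± 0.05, adjusted p = 1.3e-17). LYS2, aminoadipate reductase, changed by 0.89 ± 0.04. LYS20, homocitrate synthase, changed by 1.24 ± 0.05 and has a near-identical copy, so its counts are uncertain.

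HIS5, histidinol-phosphate aminotransferase, had 649, 652 and 661 CPM in LCY002 and 371, 352 and 344 CPM in LCY001 (0.88 ± 0.05, adjusted p = 1.94e-13). HIS4, which encodes an enzyme of several histidine steps, averaged 1567 ± 39.8 CPM in LCY002 and 1077 ± 56.3 CPM in LCY001. In branched-chain synthesis ILV5, acetohydroxyacid reductoisomerase, had 1577, 1419 and 1391 CPM in LCY002 and 772, 763 and 862 CPM in LCY001 (0.87 ± 0.06, adjusted p = 9.97e-13), and BAT1, the mitochondrial aminotransferase, changed by 0.66 ± 0.04. ARO9, an aromatic aminotransferase, had 68.3, 61.5 and 66.2 CPM in LCY002 and 27.01, 28.8 and 30.5 CPM in LCY001 (1.18 ± 0.07, adjusted p = 4.97e-13). ASN1, asparagine synthetase, had 748, 735 and 743 CPM in LCY002 and 360, 351 and 397 CPM in LCY001 (1.01 ± 0.06, adjusted p = 1.25e-12). MET16, which reduces activated sulfate, changed by 0.84 ± 0.07 in strains that all lack MET17.

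Transcripts of the regulator itself differed little. GCN4 (gene ID 856709, chromosome V, 138918 to 139763) was at 878, 899 and 902 CPM in LCY002 and at 745, 780 and 794 CPM in LCY001 (0.21 ± 0.04, adjusted p = 0.000309). Gcn4 is controlled mainly at translation, which these data do not measure. PCL5, the cyclin that directs Gcn4 breakdown and a known Gcn4 target, had 448, 429 and 431 CPM in LCY002 and 274, 252 and 295 CPM in LCY001 (0.67 ± 0.05, adjusted p = 2.01e-11). PCL5 is also the nearest annotated gene upstream of the array gene ERG7, 1404 bases away. Permease genes were mixed, with 7 rises, 2 falls and 8 not called of 17. CAN1, the arginine permease, changed by 0.33 ± 0.06 and AGP2, a plasma membrane regulator of transport, by -1.01 ± 0.09.

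**Figure D4:**
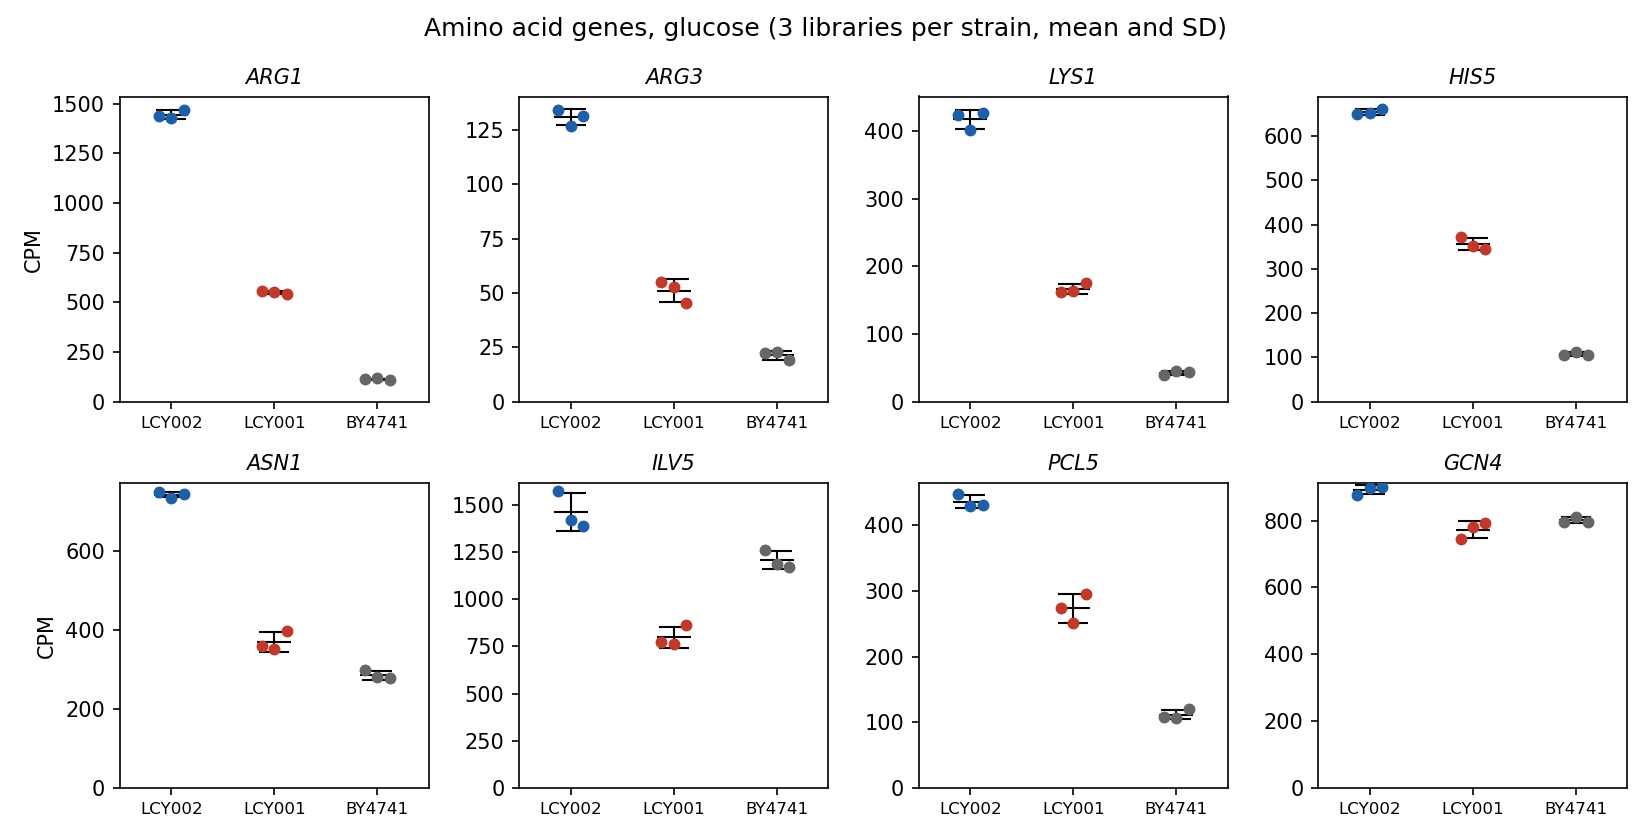
Levels in CPM (y axes, from 0) of 8 genes of amino acid synthesis and its control in each glucose library of LCY002, LCY001 and BY4741; points are libraries and bars are the mean with SD. LCY002 is highest in every panel, LCY001 lies above BY4741 for ARG1, ARG3, LYS1, HIS5, ASN1 and PCL5, and below it for ILV5.

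Most amino acid genes were also higher in LCY002 than in BY4741. Of the 90 genes 66 were higher and 6 lower in LCY002 than in BY4741, with a median of 0.68, where 17.7% of all genes were called higher and 20.7% lower. LCY001 itself was higher than BY4741 for 53 and lower for 18, where 27.6% of all genes were called higher and 27.8% lower. ARG1 stood at 113, 117 and 110 CPM in BY4741, LYS1 at 39.2, 45.1 and 43.7 CPM and HIS5 at 105, 113 and 105 CPM, so that LCY001 lay between the other strains. ILV5 departed from this order, with 1264, 1185 and 1174 CPM in BY4741.

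The promoters of the 3 largest rises that are not uncertain are shown in the same way, with capitals for TGACTC or its complement GAGTCA, the core letters that Gcn4 binds. ARG1 is chrXV:218961-219110, plus strand, ARG3 is chrX:268549-268698, plus strand and LYS1 is chrIX:420837-420986, minus strand.
ARG1: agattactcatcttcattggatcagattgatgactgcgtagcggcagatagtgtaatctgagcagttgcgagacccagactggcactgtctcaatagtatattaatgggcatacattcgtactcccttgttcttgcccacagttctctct
ARG3: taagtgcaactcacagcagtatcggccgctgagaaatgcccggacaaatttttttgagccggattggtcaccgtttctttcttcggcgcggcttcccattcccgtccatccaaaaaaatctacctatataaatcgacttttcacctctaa
LYS1: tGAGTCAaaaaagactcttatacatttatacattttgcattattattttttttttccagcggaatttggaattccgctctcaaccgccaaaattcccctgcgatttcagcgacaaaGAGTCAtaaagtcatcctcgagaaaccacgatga
LYS1 holds 2 matches, 249 and 134 bases before the start codon, while ARG1 and ARG3 hold 0 of these exact letters in the window. TGACTC on either strand occurred in 8.17% of 5681 promoters and in 44 of the 90 promoters of the 7 lists (48.9%). Amino acid synthesis genes are known to answer to Gcn4, so this share is not independent of the choice of lists. A match here too is a description of the letters and not a binding site. TGACTC occurred in 6 of 10 arginine, 4 of 10 lysine, 5 of 6 histidine and 7 of 11 branched-chain promoters. The other lists of the 7 had 5 of 13 aromatic, 6 of 23 sulfate and methionine and 11 of 17 serine group promoters. Outside the 7 lists TGACTC occurred in 12 of 17 purine synthesis promoters and in 9 of the 102 stress and reserve promoters (8.82%). Lists that did not rise as a group also held it. There were 5 of 18 tricarboxylic acid cycle, 5 of 15 fermentation and acetate, 5 of 16 fatty acid oxidation and 2 of 5 biotin promoters. Ribosome biogenesis, which rose, had 1 of 54, and the respiratory chain list, which fell, had 1 of 37.

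Nucleotide and vitamin pathways moved in different directions. Of 17 purine synthesis genes 14 rose, 2 fell and 1 was not called, with a median of 0.36. ADE4, the enzyme of the committed step, had 429, 396 and 398 CPM in LCY002 and 245, 251 and 270 CPM in LCY001 (0.68 ± 0.09, adjusted p = 8.65e-07), and BAS1, a transcription factor of the pathway, changed by 0.68 ± 0.07. Of 12 pyrimidine synthesis and uracil uptake genes 7 rose, 4 fell and 1 was not called. Of 5 guanine nucleotide genes 1 rose, 1 fell and 3 were not called. IMD2, IMP dehydrogenase of guanine nucleotide synthesis, had 40.2, 36.7 and 39.3 CPM in LCY002, 66.7, 58.4 and 64.2 CPM in LCY001 and 343, 337 and 326 CPM in BY4741. Both plasmid strains thus lay far below the parent for IMD2 (LCY002 over LCY001 -0.70 ± 0.09, adjusted p = 5.15e-07). Of 22 thiamine and vitamin B6 genes 9 rose, 1 fell and 12 were not called, so that fewer were called than among all genes tested. SNO1, of vitamin B6 synthesis, had 67.5, 63.5 and 67.3 CPM in LCY002 and 23.8, 24.9 and 25.7 CPM in LCY001 (1.41 ± 0.08, adjusted p = 1.01e-13). Its partner SNZ1 averaged 520 ± 14.1 CPM in LCY002, 181 ± 12.5 CPM in LCY001 and 17.5 ± 1.49 CPM in BY4741, and is uncertain because it adjoins an added transcript. THI4, of thiazole synthesis, had 8.41, 8.86 and 9.06 CPM in LCY002 and 2.27, 2.91 and 3.06 CPM in LCY001 (1.67 ± 0.14, adjusted p = 2.31e-10). Of 5 biotin genes 4 fell and 1 was not called. BIO2, biotin synthase, had 135, 135 and 142 CPM in LCY002 and 258, 267 and 281 CPM in LCY001 (-0.97 ± 0.14, adjusted p = 1.25e-05).

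Respiratory genes were lower in LCY002. Among 37 genes of the respiratory chain and ATP synthase 30 fell and 7 were not called, and of 18 tricarboxylic acid cycle genes 12 fell, 3 rose and 3 were not called, each list with a median of -0.27. NDI1, the internal NADH dehydrogenase, had 67.1, 72.5 and 79.6 CPM in LCY002 and 165, 138 and 146 CPM in LCY001 (-1.03 ± 0.09, adjusted p = 1.06e-09). SDH1, a succinate dehydrogenase subunit, averaged 48.1 ± 0.617 CPM in LCY002 and 96.0 ± 8.75 CPM in LCY001. CYC7, the minor cytochrome c isoform, had 3.92, 4.75 and 5.22 CPM in LCY002 and 23.8, 22.3 and 18.5 CPM in LCY001 (-2.22 ± 0.15, adjusted p = 3.22e-12). QCR10, a complex III subunit, had 1.16, 0 and 5.14 CPM in LCY002 and 15.9, 13.0 and 15.2 CPM in LCY001. A library of LCY002 held 0 counts of QCR10, and the call was lost with the replicate block (-2.95). Its log2 fold change ran from -4.66 to -2.22 when 1 library at a time was left out. HAP4, the activator of respiratory genes, changed by -0.83 ± 0.14. Against BY4741, 22 of the 37 respiratory genes were lower and 2 higher in LCY002, where 20.7% of all genes were called lower and 17.7% higher.

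Several genes of glucose uptake were lower in LCY002. Of 15 tested hexose transporter genes 7 fell, 4 rose and 4 were not called, and 7 of the 15 are uncertain. HXT4 had 228, 269 and 273 CPM in LCY002 and 901, 751 and 818 CPM in LCY001 (-1.68 ± 0.17, adjusted p = 1.06e-07), and HXT2 averaged 188 ± 10.6 CPM in LCY002 and 497 ± 78.1 CPM in LCY001. Both encode transporters that yeast makes when glucose is limited. HXT6 and HXT7, high-affinity transporter genes, are near-identical, so that reads cannot be assigned to one with certainty. Their summed level was 639, 747 and 781 CPM in LCY002, 3407, 2764 and 2751 CPM in LCY001 and 942, 974 and 1119 CPM in BY4741. MTH1, a repressor of hexose transporter genes, had 104, 124 and 130 CPM in LCY002 and 260, 232 and 255 CPM in LCY001 (-1.06 ± 0.16, adjusted p = 1.81e-05). RGT2, the low-affinity glucose sensor, changed by 0.47 ± 0.05 and MIG2, a glucose repressor, by 0.43 ± 0.10. Of 19 genes of glucose sensing and repression 12 fell, 2 rose and 5 were not called. HXT2, HXT4, MTH1 and MIG2 were closer to BY4741 in LCY002, at log2 fold changes over BY4741 of 0.17, -0.58, -0.12 and 0.10.

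Among enzymes that branch off glycolysis and that the array does not carry, some fell. Of 13 glycolytic genes outside the array 6 fell and 7 were not called. EMI2, a homologue of glucokinase, had 89.3, 93.5 and 98.7 CPM in LCY002 and 416, 310 and 335 CPM in LCY001 (-1.91 ± 0.15, adjusted p = 2.21e-09). SOL4, 6-phosphogluconolactonase of the pentose phosphate pathway, had 36.5, 36.9 and 37.9 CPM in LCY002 and 133, 114 and 114 CPM in LCY001 (-1.70 ± 0.12, adjusted p = 6.82e-11). GPD1, glycerol-3-phosphate dehydrogenase, had 163, 157 and 184 CPM in LCY002 and 423, 364 and 410 CPM in LCY001 (-1.25 ± 0.09, adjusted p = 2.88e-10). ALD4, the mitochondrial aldehyde dehydrogenase, averaged 118 ± 5.65 CPM in LCY002 and 315 ± 45.5 CPM in LCY001. ADH1, the main alcohol dehydrogenase of fermentation, changed by -0.37 ± 0.05. The lists that hold these genes did not all go down. Of 16 pentose phosphate genes 6 rose, 4 fell and 6 were not called. Of 15 fermentation and acetate genes 4 rose, 4 fell and 7 were not called. Of 11 glycerol genes 6 fell and 5 were not called. Lipid synthesis genes outside the array were mixed. Of 18 phospholipid and inositol genes 5 rose, 4 fell and 9 were not called. Of 14 genes of fatty acid synthesis and desaturation 6 rose, 5 fell and 3 were not called. The largest rises of these lists were INO1, inositol-3-phosphate synthase, at 0.78 ± 0.13 and OLE1, the fatty acid desaturase, at 0.54 ± 0.06. Of 27 sterol genes that the array does not carry 9 rose, 1 fell and 17 were not called, and the 1 that fell was ERG28 (-0.34 ± 0.08, adjusted p = 0.000771), a scaffold of sterol enzymes.

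Genes for making ribosomes were higher in LCY002 by small amounts. Of 54 ribosome biogenesis genes 49 rose and 5 were not called, with a median of 0.31, and of 26 genes of RNA polymerase I and III 22 rose, 1 fell and 3 were not called. RRN3, an initiation factor of RNA polymerase I, had 76.0, 74.7 and 70.9 CPM in LCY002 and 38.7, 44.4 and 36.9 CPM in LCY001 (0.88 ± 0.07, adjusted p = 2.38e-10). BFR2, of small subunit processing, averaged 196 ± 8.78 CPM in LCY002 and 119 ± 8.31 CPM in LCY001. The 1 fall was MAF1, a repressor of RNA polymerase III, at -0.30 ± 0.04. Of 133 cytosolic ribosomal protein genes 75 rose, 1 fell and 57 were not called, with a median of 0.16, and 52 of them are uncertain. The count that rose was 15 with total counts as the scale, 44 with the replicate block, 38 without LCY001 replicate 3 and 34 without LCY002 replicate 3. Across all fits that left out 1 library it ran from 34 to 88, so it also went above 75.

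Median log2 fold changes of the ribosome biogenesis genes over BY4741 were -0.14 for LCY002 and -0.46 for LCY001. LCY001 was lower than BY4741 for all 54 ribosome biogenesis genes and for 115 of 133 ribosomal protein genes. LCY002 was lower than BY4741 for 17 and 55 of these genes, and higher for 2 of the ribosomal protein genes. Over all genes tested 27.8% were called lower in LCY001 than in BY4741. For LCY002 against BY4741, 20.7% were called lower and 17.7% higher. Of the 54 biogenesis genes, edgeR's test called 0 higher in LCY002 than in BY4741, with 0 at an unadjusted p below 0.05, and DESeq2 called 0. RRN3 had 69.1, 70.5 and 64.6 CPM in BY4741, next to the LCY002 libraries.

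Protein breakdown genes moved down. Of 34 proteasome genes 24 fell and 10 were not called, with a median of -0.13, and of 25 genes of autophagy and vacuolar proteases 19 fell, 1 rose and 5 were not called, with a median of -0.35. ATG8, the ubiquitin-like protein of autophagosomes, had 17.5, 18.01 and 19.0 CPM in LCY002 and 29.4, 29.9 and 33.1 CPM in LCY001 (-0.76 ± 0.08, adjusted p = 5.39e-09). UBI4, polyubiquitin, changed by -0.53 ± 0.06. LCY002 was not called different from BY4741 for ATG8 (-0.03 ± 0.08, adjusted p = 0.814).

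Genes of the cell cycle and DNA synthesis gave a few larger changes. Of 20 genes of ribonucleotide reduction and the DNA damage response 10 rose, 5 fell and 5 were not called. RNR3, the damage-inducible large subunit of ribonucleotide reductase, had 35.7, 34.2 and 37.7 CPM in LCY002, 12.4, 12.7 and 10.7 CPM in LCY001 and 9.59, 9.36 and 9.80 CPM in BY4741 (LCY002 over LCY001 1.59 ± 0.10, adjusted p = 9.97e-13). RNR4, a small subunit, changed by 0.73 ± 0.06 and RNR1, the main large subunit, by 0.64 ± 0.06. PHR1, the photolyase, had 29.1, 31.5 and 29.3 CPM in LCY002 and 68.1, 63.0 and 60.1 CPM in LCY001 (-1.09 ± 0.09, adjusted p = 2.38e-10). PCL1, a G1 cyclin, had 45.6, 40.8 and 41.3 CPM in LCY002 and 18.5, 20.5 and 17.4 CPM in LCY001 (1.18 ± 0.11, adjusted p = 2.21e-09). Of 10 histone genes 9 fell and 1 was not called, with a median of -0.29, and HTA2, a histone H2A gene, changed by -0.47 ± 0.07. Libraries were selected with oligo(dT), and the share of histone transcripts that this captures was not measured. Of 35 centromere and kinetochore genes 11 rose, 7 fell and 17 were not called, near the background shares.

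Among single genes with the largest rises, PIR5, a cell wall gene, had 22.4, 21.9 and 21.8 CPM in LCY002, 6.87, 5.89 and 5.78 CPM in LCY001 and 2.32, 1.96 and 2.13 CPM in BY4741 (LCY002 over LCY001 1.83 ± 0.12, adjusted p = 3e-12). SRL4, linked to nucleotide metabolism, had 13.3, 12.8 and 12.2 CPM in LCY002 and 3.89, 3.23 and 3.47 CPM in LCY001 (1.85 ± 0.15, adjusted p = 6.19e-11). AQR1, a plasma membrane transporter, had 100, 102 and 100 CPM in LCY002 and 32.9, 32.6 and 41.5 CPM in LCY001 (1.50 ± 0.15, adjusted p = 4.13e-08). ECM13, PUG1, HLR1 and PRM7 also stood among the 12 largest rises, at log2 fold changes of 1.49, 1.43, 1.40 and 1.40. GSC2, a catalytic subunit of glucan synthase, changed by 0.84 ± 0.07. In metal handling 13 of 29 iron uptake genes rose and 2 fell, and ISU2, a scaffold for iron-sulfur clusters, had 84.9, 79.9 and 88.3 CPM in LCY002 and 40.6, 35.9 and 42.7 CPM in LCY001 (1.09 ± 0.07, adjusted p = 1.27e-12).

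Genes that flank an array gene on its own chromosome were described apart. Of 69 tested neighbours 20 rose, 19 fell and 30 were not called, with a median of 0.05, near the background shares. At least 2 fold separated 4 that rose and 3 that fell. The falls were YMR206W, 1129 bases upstream of PFK2, at -2.21 ± 0.48 and YPK2, 443 bases downstream of PGM2, at -1.04 ± 0.07. YPL247C, 268 bases upstream of GAL4, fell by -1.11 ± 0.09 and its counts are uncertain. These 3 had positive log2 fold changes in galactose (0.74, 1.24 and 0.92) and in ethanol/glycerol (0.98, 0.61 and 0.60), in the same order. COQ6, of coenzyme Q synthesis, lies 282 bases downstream of ENO1 and had 613, 603 and 628 CPM in LCY002 and 199, 183 and 179 CPM in LCY001 (1.72 ± 0.05, adjusted p = 4.82e-20), and its counts are uncertain. PEX21, a peroxisomal import gene, lies 717 bases downstream of PFK1 and had 110, 107 and 116 CPM in LCY002 and 49.0, 48.5 and 50.4 CPM in LCY001 (1.17 ± 0.09, adjusted p = 3.05e-10). PTH1, a peptidyl-tRNA hydrolase gene, lies 244 bases upstream of ERG9 and had 24.3, 21.4 and 24.2 CPM in LCY002 and 9.46, 10.8 and 11.98 CPM in LCY001 (1.12 ± 0.11, adjusted p = 2.06e-09). MIM2, of the mitochondrial outer membrane, lies 221 bases upstream of ERG27 and had 18.5, 18.1 and 25.5 CPM in LCY002 and 9.78, 12.7 and 6.74 CPM in LCY001 (1.08 ± 0.22, adjusted p = 0.000241). In galactose the log2 fold changes of LCY002 over LCY001 were 1.43 for COQ6, 1.199 for PEX21, 1.43 for PTH1 and 0.84 for MIM2. In ethanol/glycerol they were 0.94 for COQ6, 1.53 for PTH1 and 1.24 for MIM2, while PEX21 was lower in LCY002 (-0.56, adjusted p = 5.19e-06). The labels do not say whether the plasmid fragments reach into these genes, and reads of the plasmid were not separated.

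On the array itself 36 genes rose, 3 fell and 1 was not called, and 8 of the 40 are uncertain. ERG5, sterol desaturase, had 426, 389 and 407 CPM in LCY002, 78.6, 79.3 and 80.0 CPM in LCY001 and 118, 108 and 110 CPM in BY4741 (LCY002 over LCY001 2.36 ± 0.05, adjusted p = 2.22e-23). HXK2, the main hexokinase on glucose, had 4129, 4284 and 4513 CPM in LCY002 and 1703, 1468 and 1658 CPM in LCY001 (1.42 ± 0.12, adjusted p = 2.28e-09). The falls were PGM2, HXK1 and TDH2. For TDH2 the log2 fold change ran from -0.355 to -0.289 when 1 library at a time was left out. HXK1, a hexokinase gene under glucose repression, had 1067, 1100 and 1172 CPM in LCY002, 1778, 1360 and 1423 CPM in LCY001 and 405, 446 and 500 CPM in BY4741. Its change of -0.45 ± 0.18 (adjusted p = 0.0384) lost its call without LCY001 replicate 1 (-0.32) or LCY002 replicate 1 (-0.42), 2 (-0.44) or 3 (-0.49). PGM2, phosphoglucomutase, had 385, 357 and 466 CPM in LCY002, 651, 536 and 605 CPM in LCY001 and 193, 190 and 239 CPM in BY4741 (-0.57 ± 0.16, adjusted p = 0.0059). Both genes were higher in LCY002 than in BY4741, at 1.30 and 0.96. CDC19, pyruvate kinase, had 13413, 12916 and 12751 CPM in LCY002 and 12161, 12542 and 12356 CPM in LCY001 (0.08 ± 0.04, adjusted p = 0.149), and its direction turned with total counts as the scale (-0.03).

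The strain difference in glucose was set against that in the other carbon sources by an interaction test. It differed from galactose for 2669 genes outside the array and from ethanol/glycerol for 3420, and over all genes tested these shares were 47.3% and 60.5%. Of the 102 stress and reserve genes 76 rose and 2 fell in LCY002 against LCY001 in galactose, where 38.2% of all genes were called, 20.2% higher and 18.1% lower. In ethanol/glycerol, where 59.8% of all genes were called, 29.4% higher and 30.4% lower, 63 of the 102 rose and 11 fell. For GLC3 the glucose value of -2.42 ± 0.17 stood against 1.27 in galactose, and the ethanol/glycerol value was 0.98, so its direction turned. The difference was -3.70 ± 0.24 between glucose and galactose and -3.41 ± 0.23 between glucose and ethanol/glycerol. RGI1 turned likewise, with -2.42 in glucose against 2.04 in galactose, and its ethanol/glycerol value of 0.56 was not called (adjusted p = 0.15). Galactose gave 66 rises and 3 falls among the 90 amino acid genes. Ethanol/glycerol gave 40 rises and 15 falls. ARG1 changed by 1.39 in glucose, against 1.81 in galactose and a smaller 0.47 in ethanol/glycerol. ASN1 had 1.01 in glucose, against 0.46 in galactose, and its ethanol/glycerol value of 0.07 was not called.

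**Figure D5:**
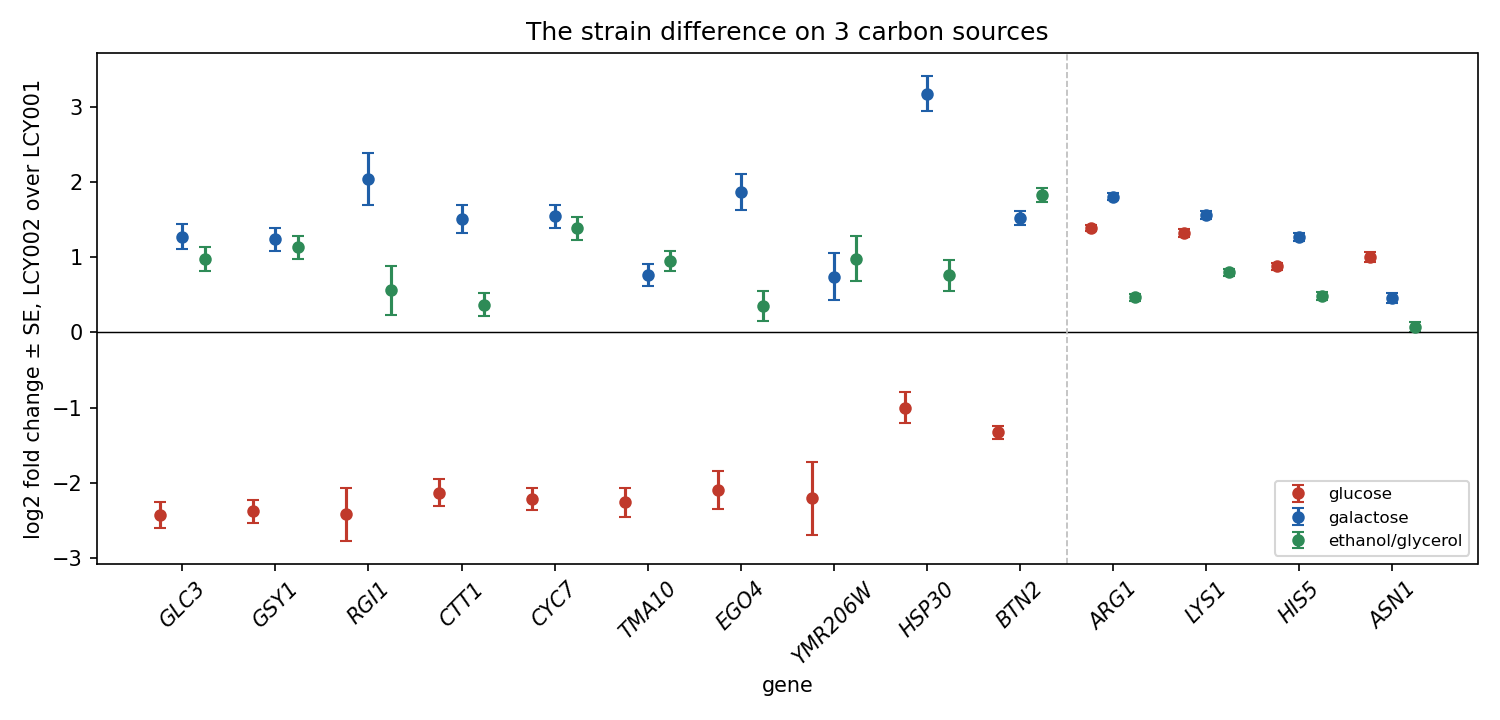
Log2 fold change of LCY002 over LCY001 (y axis, fitted value with SE) of 14 genes (x axis) in glucose, galactose and ethanol/glycerol. The 10 genes left of the dashed line were picked as the largest differences between glucose and another carbon source. They are below 0 in glucose and above 0 in the other carbon sources, and the 4 amino acid genes to its right are above 0 in all 3.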

How the data were processed

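Messenger RNA of 27 libraries, 3 for each of 9 groups of strain and carbon source, was sequenced after oligo(dT) selection and random hexamer priming, per the labels' protocols. The values are RSEM expected counts per gene that the authors deposited, with HISAT2 2.1.0, Bowtie2 2.2.5, RSEM 1.2.8 and build R64 named in the submitters' processing notes. Expected counts were rounded to whole numbers, since 5.70% to 6.06% of values per library were not whole. Of 5995 genes 5980 had an ID in the reference annotation. edgeR 4.0.16 (R 4.3.3, limma 3.58.1) was fitted with TMM factors, filterByExpr, 1 mean per group over all 27 libraries and robust quasi-likelihood dispersion, and standard errors are the fold change over the square root of F. DESeq2 1.42.0 was an alternative.

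The design compared LCY002 with LCY001 in glucose, each with BY4741, and the strain difference between carbon sources by interaction terms. The members and gene lists were chosen with earlier results of these data known. Genes were named by rule, namely, outside the array, the 12 called genes that rose most and the 12 that fell most with at least 5 CPM, no overlap and no uncertainty, up to 4 called members per list and direction, control points, array extremes and the 6 largest interactions. A gene was treated as uncertain (654 in all) where it is an added transcript or lies within 500 bases of one, overlaps another gene, has a copy with at least 95% identity over 100 bases, or differed more than 3 fold between replicates. Promoters were read from the reference genome and not from a table. Colonies are the replicates, so p-values measure the spread between colonies. On simulated counts edgeR recovered 78% of genes changed 1.25 fold and 96% of those changed 1.5 fold, and called 9 of 5488 unchanged genes. Those counts were drawn from the fitted model, with LCY002 equal to LCY001 except for the changed genes, all of at least 5 CPM. They held no shift in scale, so the count of false calls cannot speak for the choice of scale or for spread outside the model. A few genes that the rule would name are not reported here.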

Additional observations from a re-analysis of the deposited data

Results flagged for a closer look

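The difference between LCY002 and LCY001 in glucose was tested against the same difference in the other carbon sources, and the results below are those where it differed (edgeR's quasi-likelihood interaction test). It differed between glucose and galactose for 2669 genes outside the array. The 6 largest differences in log2 fold change, glucose minus galactose, were -4.46 for RGI1, -4.17 for HSP30, -3.97 for EGO4, -3.76 for CYC7, -3.70 for GLC3 and -3.64 for CTT1. It differed between glucose and ethanol/glycerol for 3420 genes outside the array. The 6 largest of these, glucose minus ethanol/glycerol, were -3.60 for CYC7, -3.52 for GSY1, -3.41 for GLC3, -3.21 for TMA10, -3.19 for YMR206W and -3.16 for BTN2. Each of these 10 genes was lower in LCY002 than in LCY001 in glucose and had a positive fitted log2 fold change in galactose and in ethanol/glycerol.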

How the results depend on the processing

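Of the genes called outside the array, 1584 higher and 1435 lower in the reported fit, total counts as the scale gave 866 higher and 2292 lower, and BY4741 as the control gave 970 higher and 1180 lower. Leaving out 1 library at a time gave 2621 to 2817 genes called in all, 1360 to 1465 higher and 1261 to 1368 lower, with 36 array genes higher throughout. With BY4741 as the control the list medians changed sign for oxidative stress (0.0776), general stress (0.0014), pyrimidine (-0.27), biotin (0.21), cytosolic ribosomal protein (-0.13), ribosome biogenesis (-0.14), RNA polymerase I and III (-0.0786) and autophagy genes (0.0874). Among lists not followed through the other settings, that control also changed the sign for Gcn4 and its controllers (-0.12), guanine nucleotide (-0.57), mitochondrial ribosomal protein (0.011), hexose transporter (0.17), pentose phosphate (-0.14), phospholipid (-0.091), fatty acid synthesis (-0.13) and oxidation (0.31), phosphate (-0.067), translation factor (-0.16), cell wall (-0.059), pheromone (-0.43), G1/S (-0.060) and DNA replication genes (-0.0061). With that control the log2 fold changes also changed sign for HXT2 (0.17), BFR2 (-0.0299), UBI4 (0.15), HIS3 (3.75), PGM2 (0.96) and HXK1 (1.30). Another 16 named genes kept their direction and lost their call. Among them were CYC7 (-0.37), TMA10 (-0.29), EGO4 (-0.71), YMR206W (-0.043) and BTN2 (-0.11). The others were TPS1, HSP82, ALD3, AGP2, HAP4, ALD4, MTH1, MIG2, RRN3, ATG8 and PHR1. For 77 named genes direction and call stayed the same. With total counts CDC19 changed sign (-0.0299). Small positive list medians also turned negative on that scale. They were sterol genes outside the array (-0.014), permeases (-0.010), Gcn4 and its controllers (-0.023), guanine nucleotide (-0.0024), gluconeogenesis (-0.088) and pentose phosphate (-0.0565). Also turned were phospholipid (-0.071), fatty acid synthesis (-0.010), translation factor (-0.019), endoplasmic reticulum folding (-0.047) and pheromone (-0.096). Further ones were meiosis (-0.093), DNA replication (-0.023), mitochondrial import (-0.014) and array neighbours (-0.061). The cause was not tested, except that BY4741 as the control replaces the LCY001 libraries. The replicate block gave 2610 genes called outside the array, 1282 higher and 1328 lower, and TPS1 and QCR10 lost their calls. Same-numbered LCY002 and LCY001 libraries had correlations of -0.14, -0.00026 and -0.054 in their deviations from the group means, so the numbers were not taken to pair the samples. Pseudocounts do not enter a count model. At these depths 3 counts equal 0.199 CPM, and genes near that level cannot show small differences.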
